A study of Mus musculus with 20 samples.

Results

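Fat cell genes were followed in C2C12 cells, a mouse myoblast line, under bone morphogenetic protein 4 (BMP4) and under 3 small molecules known only by the code names 942, 178 and 181. The 10 genes were Zfp423, Cebpb, Cebpd, Pparg, Cebpa, Fabp4, Lpl, Cd36, Plin1 and Adipoq, chosen by gene symbol for their place in adipocyte differentiation or lipid handling, out of 22180 genes that had a symbol of their own on the array. They were read by 11 probe sets, and for Lpl, the gene with 2, the probe set with the higher mean over the arrays stood for it. The study asked how the compounds compare with BMP4 in myoblasts. Total RNA was hybridised to Affymetrix mouse gene arrays, and every value below is a log2 signal or a difference of log2 signals, so that a difference of 1 is a doubling. The 20 arrays covered BMP4 at 10, 100 and 300 ng/ml with 2 arrays per dose, each compound at 6.25, 12.5 and 25 µM with 1 array per dose, methanol with 3 arrays and untreated cells with 2. All cells were kept in the same medium with serum, and how long they were treated before RNA was extracted is stated in none of the sources used here. The compounds were set against methanol, which the protocol names beside them, and BMP4 was set against untreated cells. Nothing in the labels tells whether a group's arrays stem from different cultures, so the p-values cover only the spread between these arrays, and that spread may be technical.

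In fat cell formation, Zfp423 marks and commits precursor cells, Cebpb and Cebpd encode transcription factors of the C/EBP family that act early, and Pparg and Cebpa encode the factors that then sustain each other and switch on the genes of the mature adipocyte. Among those genes, Fabp4 encodes the cytosolic fatty acid binding protein aP2, Lpl the lipase that frees fatty acids from circulating lipoproteins, Cd36 a fatty acid transporter of the cell surface, Plin1 the coat protein of the adipocyte lipid droplet and Adipoq the hormone adiponectin. Lpl, Cd36 and, at a lower level, Pparg are also used outside fat, and skeletal muscle takes up fatty acids through Lpl and Cd36. BMP4 can turn mesenchymal precursor cells towards fat or bone, and in C2C12 cells the BMP proteins are known for blocking muscle fibre formation and raising osteoblast genes.

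Before the results, 3 properties of the arrays bear on them. The sample titles are numbered 10 to 29 without a gap, and no label names a run or batch. They were split here into 2 runs, 10 to 17 and 18 to 29, where the sequence of treatments starts again from untreated cells. Each run holds 1 array of untreated cells and 1 of every BMP4 dose, while compound 942 lies in run 1 and compounds 178 and 181 in run 2. A labelling method called Affyexpress was used for 4 arrays, the 3 of compound 942 and replicate 1 of BMP4 at 300 ng/ml. With a term for it in the model the mean at 300 ng/ml rests on replicate 2. The term itself is set by replicate 1 against replicate 2 of that dose, and it enters every modelled difference of 942. A labelling effect cannot be told apart from any other difference between those 2 arrays. The untreated cells carried muscle markers, 7 of which had a summed linear signal of 12960 to 14280, whereas 7 measured adipocyte markers together reached 198.7 to 230.1.

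BMP4 raised 5 of the 10 genes and lowered 1, as the mean over its 3 doses minus untreated (limma, adjusted p under 0.05 over all 22180 genes). Fabp4, Pparg, Cebpd, Lpl and Zfp423 rose, Cd36 fell, and Cebpa, Cebpb, Adipoq and Plin1 were not called. Over all genes 8.81% were called in this comparison, 4.2% higher and 4.6% lower. The median difference of the 10 genes was 0.38, and that of all genes was -0.01. The signal of 4 genes, Fabp4, Pparg, Lpl and Zfp423, was higher on all 6 BMP4 arrays than on any of the 5 arrays of methanol and untreated cells, as was the case for 3.19% of all genes.

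**Figure D1:**
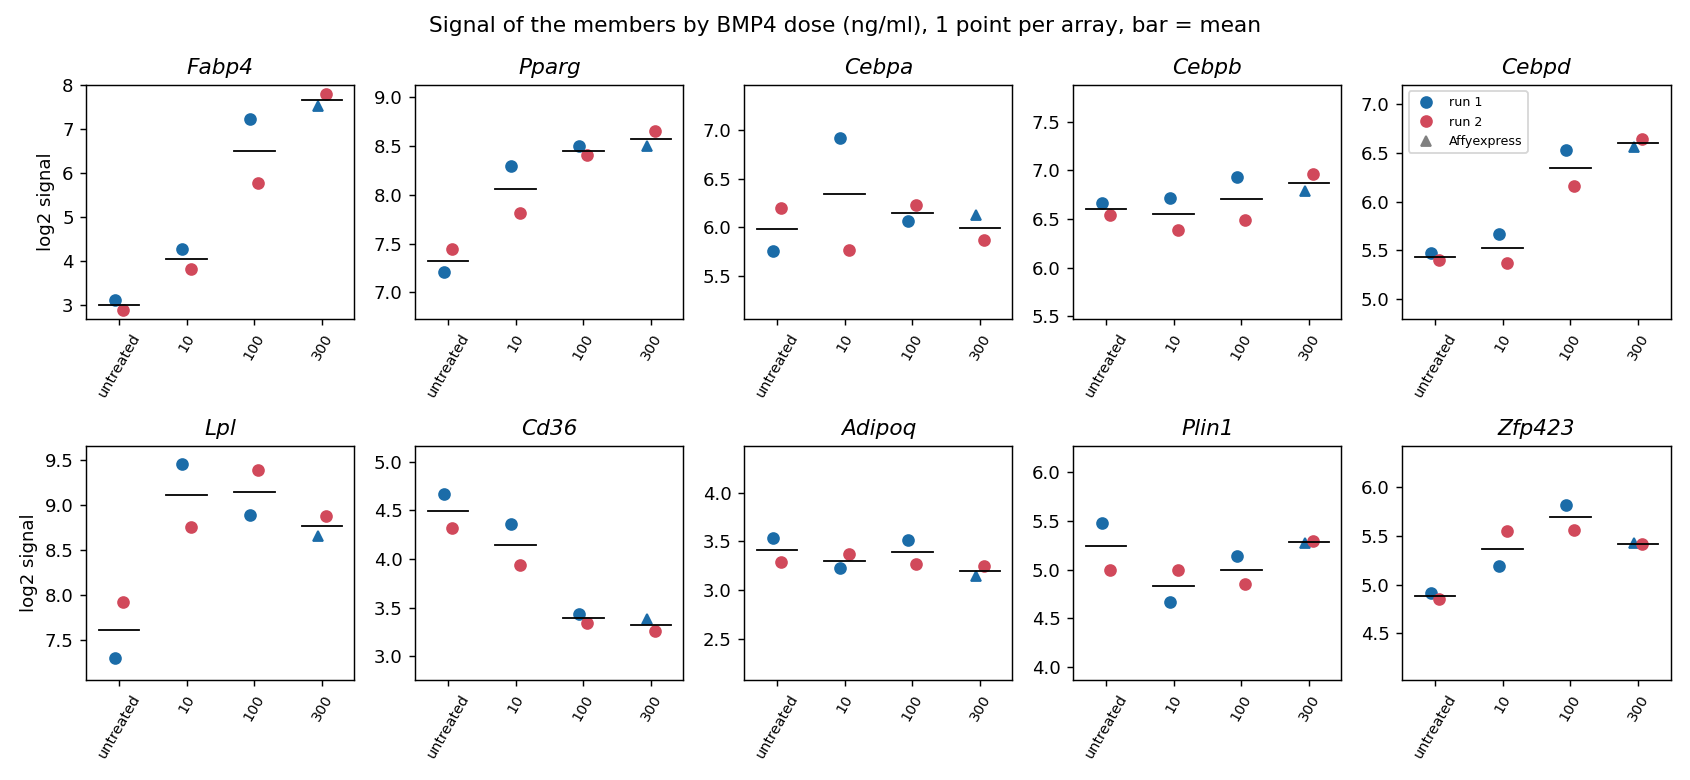
Log2 signal (vertical axis) of each of the 10 genes in untreated cells and at 10, 100 and 300 ng/ml BMP4 (horizontal axis). Each point is 1 array, colours mark the 2 runs of sample titles, triangles mark Affyexpress labelling and bars are group means. Fabp4 climbs across the doses, Cebpd leaves the untreated level at 100 ng/ml, and Cd36 goes down. At 10 ng/ml both arrays of Fabp4, Pparg, Lpl and Zfp423 already lie above the untreated arrays, and of these limma called Lpl at that dose.

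Among the early transcription factors, Zfp423 rose and Cebpd rose, while Cebpb was not called. Zfp423, a zinc finger protein of committed preadipocytes, had signals of 4.91 and 4.85 in untreated cells, 5.19 and 5.55 at 10 ng/ml, 5.81 and 5.56 at 100 ng/ml and 5.43 and 5.41 at 300 ng/ml. All BMP4 arrays lay above both untreated arrays and above the methanol arrays, which had 4.95, 4.69 and 5.15. The mean difference was 0.61 (SE 0.16, limma adjusted p = 0.0363), a ratio of 1.53. The difference was largest at 100 ng/ml, 0.81 (adjusted p = 0.0196), and the slope per doubling of dose was 0.02 (adjusted p = 0.886). Over 22 alternatives the difference was 0.55 to 0.67 and its adjusted p 0.00394 to 0.182. The calls for the mean and at 100 ng/ml were lost when untreated replicate 1, untreated replicate 2 or the first array of 100 ng/ml was left out, and that for the mean also when the second array of 10 ng/ml was left out (adjusted p = 0.0578).

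Cebpd followed the dose. Its signals were 5.47 and 5.40 in untreated cells, 5.67 and 5.37 at 10 ng/ml, 6.53 and 6.16 at 100 ng/ml and 6.56 and 6.64 at 300 ng/ml. At 10 ng/ml the arrays overlapped the untreated ones, and at 100 and 300 ng/ml they stood clear of all 5 control arrays, of which methanol replicate 2 was highest with 5.76. The arrays at these doses were above all controls for 5 of the 10 genes, as for 10.4% of all genes. The mean difference was 0.74 (SE 0.15, adjusted p = 0.00718), made of 0.09 at 10 ng/ml (adjusted p = 0.916), 0.91 at 100 ng/ml (adjusted p = 0.00534) and 1.21 at 300 ng/ml (adjusted p = 0.00342). The step between 10 and 100 ng/ml was itself called, 0.83 (adjusted p = 0.0264), as was the slope of 0.23 per doubling (adjusted p = 0.00522). The call for the mean was lost when untreated replicate 1 (adjusted p = 0.0579), untreated replicate 2 (0.071) or the second array of 300 ng/ml (difference 0.50, adjusted p = 0.0798) was left out, and over 22 alternatives its adjusted p was 0.00189 to 0.123. Leaving out the first array of 100 ng/ml ended the calls at 100 ng/ml (adjusted p = 0.0574) and for the step (0.244), and the step was also lost when the second array of 10 ng/ml (0.21) or methanol replicate 2 (0.05) was left out.

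Cebpb, the other early C/EBP factor, overlapped with the controls and was not called. It had 6.67 and 6.54 in untreated cells, 6.71 and 6.39 at 10 ng/ml, 6.93 and 6.49 at 100 ng/ml and 6.78 and 6.96 at 300 ng/ml. The 3 highest BMP4 arrays, 6.78, 6.93 and 6.96, lay above all 5 controls and the lowest, 6.39, below them, and the mean difference of 0.14 had a 95% interval of -0.20 to 0.47 (adjusted p = 0.733).

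Pparg, the nuclear receptor without which fat cells do not form, was higher at every dose and was called as a mean and at 100 and 300 ng/ml. Its signals were 7.20 and 7.45 in untreated cells, 8.30 and 7.81 at 10 ng/ml, 8.50 and 8.41 at 100 ng/ml and 8.50 and 8.65 at 300 ng/ml. The lowest BMP4 array, 7.81, lay above the highest of the 5 control arrays, 7.59. The mean difference was 1.06 (SE 0.14, 95% interval 0.75 to 1.37, adjusted p = 0.000525), a ratio of 2.09. It was 0.73 at 10 ng/ml (adjusted p = 0.0656), 1.13 at 100 ng/ml (adjusted p = 0.00105) and 1.33 at 300 ng/ml (adjusted p = 0.00151), and the slope of 0.12 per doubling was not called (adjusted p = 0.112). In run 1 the 3 BMP4 arrays averaged 1.23 above the untreated array, and in run 2 they averaged 0.84 above it. The mean was called in all 22 alternatives (adjusted p 3.93e-05 to 0.0178). At 10 ng/ml it was called in 4 of 21 alternatives: with labelling and run terms (0.73, adjusted p = 0.0346), without the labelling term (0.0447), with untreated and methanol together as control (0.0328) and when the second array of that dose was left out (0.98, adjusted p = 0.0178). The slope was called when the first array of 10 ng/ml was left out (adjusted p = 0.0238).

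Pparg has several transcription starts, and the array value does not separate them. In the RefSeq promoter table of mouse (build GRCm38.p6), 7 of the 10 genes matched, with 10 windows of 250 bases before a start. They were searched on both strands for the C/EBP motif TTGCNNAA, the PPAR-RXR direct repeat (AGGTCA, any base, AGGTCA), its single unit AGGTCA, and GGCGCC, a SMAD motif of BMP response elements. Among all 32807 windows of this length, 9.57% held the C/EBP motif, 0.0335% the direct repeat, 14% the single unit and 9.59% GGCGCC. The single unit is part of every direct repeat, and none of the 10 windows held a direct repeat. Fabp4, Cebpd and Lpl had no window, so they were not searched. A pair of Pparg windows, a Zfp423 window and the Cd36 window are shown as examples from genes that changed under BMP4, with the motifs they hold in capitals. Another Pparg window and another Zfp423 window, not shown, hold a single unit at 9 and 34 bases before the start. The Pparg window at chr6:115421816-115422065 (plus strand) has C/EBP matches starting 215 and 16 bases before the start, and the one at chr6:115360894-115361143 (plus strand) has GGCGCC at 227 and a single unit at 28 bases before it. The Zfp423 window at chr8:87959596-87959845 (minus strand) has a C/EBP match at 131 bases and the Cd36 window at chr5:17835897-17836146 (minus strand) a single unit, read on the opposite strand, at 228 bases before the start.
Pparg, window with C/EBP matches: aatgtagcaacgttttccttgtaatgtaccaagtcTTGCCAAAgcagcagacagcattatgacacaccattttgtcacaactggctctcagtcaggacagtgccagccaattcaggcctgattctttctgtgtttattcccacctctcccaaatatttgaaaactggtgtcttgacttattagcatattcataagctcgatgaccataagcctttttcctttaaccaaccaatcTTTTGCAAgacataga
Pparg, window with GGCGCC and a single unit: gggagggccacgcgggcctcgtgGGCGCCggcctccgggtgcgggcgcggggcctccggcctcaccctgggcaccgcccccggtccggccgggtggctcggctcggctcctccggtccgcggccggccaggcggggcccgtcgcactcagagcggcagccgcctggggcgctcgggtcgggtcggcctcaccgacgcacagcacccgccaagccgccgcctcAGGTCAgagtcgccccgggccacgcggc
Zfp423, window with a C/EBP match: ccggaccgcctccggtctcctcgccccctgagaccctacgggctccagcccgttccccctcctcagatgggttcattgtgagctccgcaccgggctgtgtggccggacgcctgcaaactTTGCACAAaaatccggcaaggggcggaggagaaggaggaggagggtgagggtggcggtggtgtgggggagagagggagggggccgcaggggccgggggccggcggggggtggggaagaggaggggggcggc
Cd36, window with a single unit: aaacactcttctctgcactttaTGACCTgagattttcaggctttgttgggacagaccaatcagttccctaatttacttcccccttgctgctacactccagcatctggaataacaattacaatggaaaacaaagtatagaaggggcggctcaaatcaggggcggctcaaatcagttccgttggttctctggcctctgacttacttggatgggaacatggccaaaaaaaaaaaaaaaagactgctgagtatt
These matches are descriptions of the letters in the windows, and binding was not measured here. Among the genes that were not called, Plin1 had 2 C/EBP matches in its window and Cebpa 1 match of GGCGCC, while Cebpb and Adipoq had none of the searched motifs.

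Cebpa, the partner of Pparg in the mature fat cell, was not called. It had 5.76 and 6.20 in untreated cells, 6.92 and 5.77 at 10 ng/ml, 6.06 and 6.24 at 100 ng/ml and 6.12 and 5.87 at 300 ng/ml. Among the BMP4 arrays, the first of 10 ng/ml with 6.92 stood well above both untreated arrays, and the other array of that dose lay beside the lower untreated one. The mean difference was 0.14 (95% interval -0.40 to 0.68, adjusted p = 0.844), and the runs gave opposite signs, 0.61 in run 1 and -0.24 in run 2.

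Fabp4 rose most of the 10 genes and went up with dose. Its signals were 3.11 and 2.89 in untreated cells, 4.29 and 3.84 at 10 ng/ml, 7.24 and 5.79 at 100 ng/ml and 7.54 and 7.81 at 300 ng/ml. No array of 1 dose overlapped those of the next, although the pair at 100 ng/ml lay far apart. The mean difference over the doses was 3.12 (SE 0.30, 95% interval 2.48 to 3.77, adjusted p = 5.06e-05), a ratio of 8.71. The difference was 1.06 at 10 ng/ml (adjusted p = 0.258), 3.51 at 100 ng/ml (adjusted p = 7.16e-05) and 4.80 at 300 ng/ml (adjusted p = 3.91e-05), the last a ratio of 27.9. Signals near 3 are at the dim end of these arrays, where background flattens ratios, and no detection calls were used here.

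The dose relation of Fabp4 was called as a slope of 0.76 per doubling of BMP4 (SE 0.08, adjusted p = 0.000277). The step between 10 and 100 ng/ml was 2.45 (adjusted p = 0.00281), and it was 2.23 when the second array of 10 ng/ml was left out (adjusted p = 0.057). The step between 100 and 300 ng/ml was 1.29 (95% interval 0.36 to 2.23, adjusted p = 0.8), and it was 2.02 when the first array of 100 ng/ml was left out (adjusted p = 0.00471). The difference at 10 ng/ml was called when either array of 100 ng/ml was left out (adjusted p = 0.0182). In run 1 the 3 BMP4 arrays averaged 3.24 above the untreated array, and in run 2 they averaged 2.92 above it. The mean was called in all 21 alternatives that measured the gene, with differences of 2.28 to 3.37 and adjusted p of 3.24e-07 to 0.0181.

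Lpl was already higher at the lowest dose, and the order of the doses differed between the runs. Its signals were 7.30 and 7.93 in untreated cells, 9.46 and 8.76 at 10 ng/ml, 8.89 and 9.39 at 100 ng/ml and 8.65 and 8.88 at 300 ng/ml. All BMP4 arrays lay above the 5 control arrays, and the controls themselves split by run, 7.27 and 7.30 in run 1 against 7.93 to 8.12 in run 2. The mean difference was 1.43 (SE 0.27, adjusted p = 0.00503), a ratio of 2.69. It was 1.49 at 10 ng/ml (adjusted p = 0.048), 1.52 at 100 ng/ml (adjusted p = 0.00922) and 1.26 at 300 ng/ml (adjusted p = 0.0731), and the slope per doubling was -0.04 (adjusted p = 0.881). Within run 1 the BMP4 arrays averaged 1.70 above the untreated array, and within run 2 1.08. At 10, 100 and 300 ng/ml the differences were 2.15, 1.59 and 1.35 in run 1. In run 2 they were 0.83, 1.46 and 0.95. Without untreated replicate 1 the mean was 1.11 and not called (adjusted p = 0.106, the highest of 22 alternatives, the lowest being 0.00044). The call at 100 ng/ml was lost without that array (adjusted p = 0.0976) or without the second array of 100 ng/ml (0.0607).

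Lpl was the one gene of the 10 called at 10 ng/ml, where 1.1% of all genes were called. That call was held in 12 of 21 alternatives (adjusted p 0.0109 to 0.385). It was lost with the average of its 2 probe sets (1.12, adjusted p = 0.0559) and when the first array of 10 ng/ml, either untreated array, or methanol replicate 2 or 3 was left out. The second probe set of Lpl was dimmer and differed less, with 3.95 and 4.25 in untreated cells, 4.66 and 5.04 at 10 ng/ml, 4.35 and 4.84 at 100 ng/ml and 4.34 and 4.85 at 300 ng/ml. Each of its BMP4 arrays was above both untreated arrays, though 2 of them were below methanol replicate 2, which had 4.37.

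Cd36 went the other way. Its signals were 4.67 and 4.31 in untreated cells, 4.36 and 3.94 at 10 ng/ml, 3.44 and 3.35 at 100 ng/ml and 3.39 and 3.26 at 300 ng/ml. At 10 ng/ml the arrays overlapped the untreated ones, and at 100 and 300 ng/ml all 4 lay below the 5 control arrays, as was the case for 11% of all genes. The mean difference was -0.89 (SE 0.16, adjusted p = 0.00396), 1.86-fold lower. It was -0.34 at 10 ng/ml (adjusted p = 0.602), -1.10 at 100 ng/ml (adjusted p = 0.00295) and -1.23 at 300 ng/ml (adjusted p = 0.00559), with a slope of -0.19 per doubling (adjusted p = 0.0284). Without untreated replicate 1 the mean was -0.71 and not called (adjusted p = 0.0828, the highest of 21 alternatives, the lowest being 0.000138). The slope was lost when the first array of 10 ng/ml (adjusted p = 0.158) or the second of 300 ng/ml (0.0602) was left out. The step between 10 and 100 ng/ml was -0.76 and not called (adjusted p = 0.0599), but was called with labelling and run terms (0.0144), without the labelling term (0.039), with median centring (0.0419) and with untreated and methanol together as control (0.0374).

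The 2 genes that define the mature fat cell, Plin1 and Adipoq, were not called. Plin1 had 5.48 and 5.00 in untreated cells, 4.67 and 4.99 at 10 ng/ml, 5.14 and 4.86 at 100 ng/ml and 5.27 and 5.29 at 300 ng/ml, a mean difference of -0.20 (95% interval -0.58 to 0.18, adjusted p = 0.634). Adipoq had 3.54 and 3.29 in untreated cells, 3.22 and 3.37 at 10 ng/ml, 3.52 and 3.27 at 100 ng/ml and 3.15 and 3.25 at 300 ng/ml, a mean difference of -0.10 (95% interval -0.42 to 0.22, adjusted p = 0.797). The BMP4 and untreated arrays overlapped for both genes.

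By dose, 1 of the 10 genes was called at 10 ng/ml, 6 were called at 100 ng/ml and 4 at 300 ng/ml, where 9.15% and 7.98% of all genes were called at the higher doses. The same 6 genes as for the mean were called at 100 ng/ml, and the 4 at 300 ng/ml were Fabp4, Pparg, Cebpd and Cd36. These counts are not of like precision, since with the labelling term the mean at 300 ng/ml rests on replicate 2. The median SE over all genes was 0.205 at 300 ng/ml and for the step from 100 to 300 ng/ml. At 10 and at 100 ng/ml it was 0.167. The slope on dose was called for 3 genes, Fabp4, Cebpd and Cd36, against 5.4% of all genes. The step between 10 and 100 ng/ml was called for 2, Fabp4 and Cebpd, against 2.95% of all genes. For the step between 100 and 300 ng/ml limma called 0 of the 10, with 1 (Fabp4) at an unadjusted p under 0.05, and 0.00902% of all genes. Of all 22180 genes, 1129 had an unadjusted p under 0.05 in that step.

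No gene of the 10 was called under a compound. Of the mean over 3 doses minus methanol, limma called 0 of 10 for each compound, against 0% of all genes for 942 and 178 and 0.00451% for 181. At an unadjusted p under 0.05 the count was 0 for 942, 0 for 178 and 1 for 181, the last being Cd36 with -0.37 (95% interval -0.70 to -0.03). Over all 22180 genes this count was 333 for 942, 547 for 178 and 816 for 181. Methanol against untreated cells likewise had 0 called genes of the 10, 0 at an unadjusted p under 0.05, and 0% of all genes. These counts do not show that the compounds left the genes as they were, since each dose had 1 array and the interval of compound 942, widened by the labelling term, ran from -0.85 to 1.64 for Fabp4. Array by array, all 3 of 942 were above all 3 of methanol for Pparg (7.68, 7.60 and 7.85, against 7.36, 7.59 and 7.59), as for 5.65% of all genes, and below them for Cebpd (5.35, 5.37 and 5.36, against 5.69, 5.76 and 5.52), as for 6.79%. These are signals without the labelling term. All arrays of 942 had Affyexpress labelling in run 1, and the methanol arrays had standard labelling in both runs. The separations of 942 therefore cannot be told apart from a labelling or run difference. No such separation was seen for the 10 genes with 178, where 4.67% of all genes were higher and 4.92% lower.

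**Figure D2:**
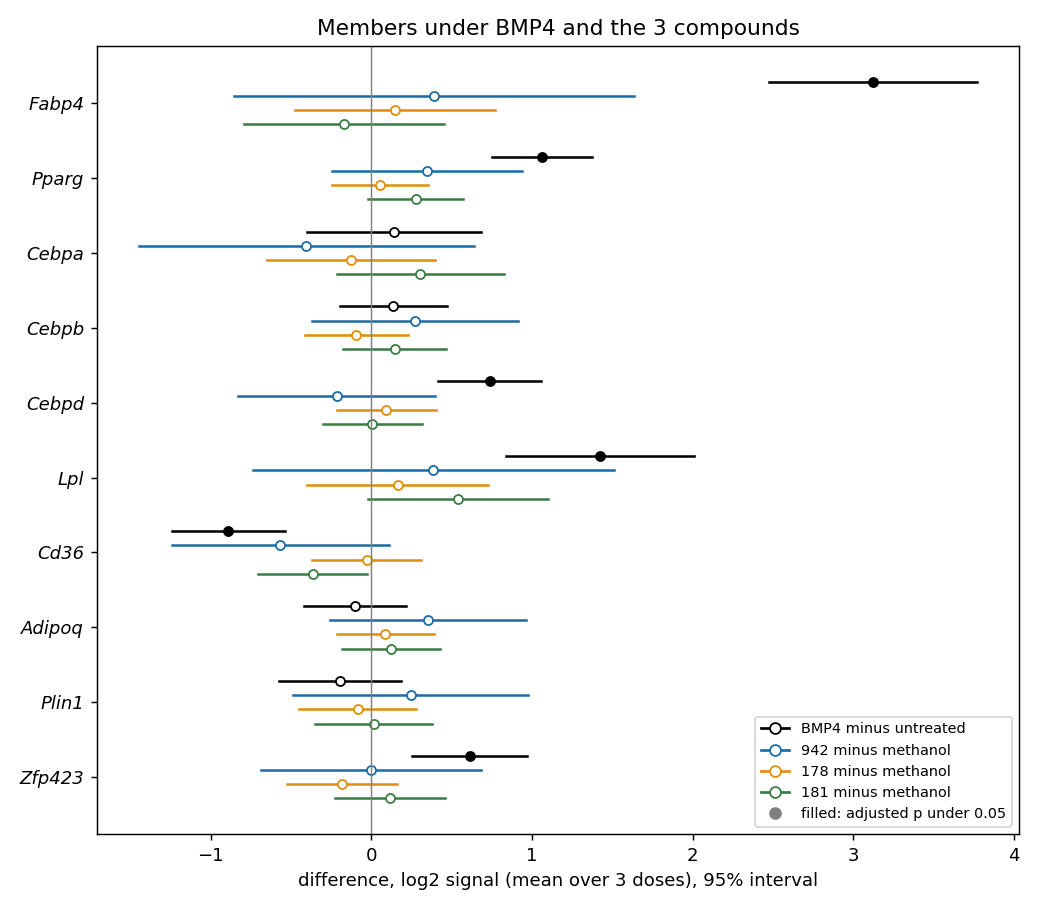
Difference in log2 signal (horizontal axis) with 95% interval for each gene (vertical axis), for BMP4 minus untreated and for each compound minus methanol, as the mean over 3 doses. Filled points have a limma adjusted p under 0.05. The 6 filled points are those of BMP4 for Fabp4, Pparg, Cebpd, Lpl, Cd36 and Zfp423.

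Fabp4 had signals of 2.95 to 3.56 under the 3 compounds, against 2.89 to 3.31 on the 5 control arrays. It had 3.11, 3.34 and 3.56 with 6.25, 12.5 and 25 µM of 942, then 3.48, 3.55 and 3.06 with 178 and 3.06, 3.12 and 2.95 with 181, against 3.31, 3.13 and 3.20 with methanol. The arrays of 181 all lay below those of methanol, and those of 942 and 178 overlapped them. Under 181, 6.51% of all genes were lower in this way, Fabp4 and Cd36 among them, and 4.82% were higher, with none of the 10. The mean differences were 0.39 for 942, 0.15 for 178 (95% interval -0.47 to 0.77) and -0.17 for 181 (95% interval -0.79 to 0.45). The value for 942 was 0.12 without the labelling term and turned to -1.62 with 1 common mean for the doses of each treatment, with no call in either. In the latter setting the labelling term rests on the first array of 300 ng/ml BMP4 (7.54) against BMP4 arrays of all doses. The term thus takes in part of the BMP4 dose difference, and -1.62 cannot be read as a change under 942. The value for 181 was 0.01 with labelling and run terms.

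The change of Fabp4 under the compounds was set against its change under BMP4 in the same model. The compound change minus the BMP4 change was -2.97 for 178 (SE 0.41, adjusted p = 0.00218) and -3.29 for 181 (SE 0.41, adjusted p = 0.00166), and both were called in all 23 alternatives. For 942 it was -2.73 (SE 0.58, adjusted p = 0.0557), called in 7 of 20 alternatives, among them labelling and run terms (adjusted p = 0.0115). For Pparg the same difference was -1.01 for 178 (adjusted p = 0.0147), -0.79 for 181 (adjusted p = 0.0579) and -0.71 for 942 (adjusted p = 0.403). In all, 2 of the 10 genes were called in this comparison for 178, 1 for 181 and 0 for 942, against 3.52%, 2.86% and 0.78% of all genes. For 942, 3 of the 10 had an unadjusted p under 0.05, as had 2001 of all 22180 genes. With labelling and run terms the difference was also called for Lpl (-1.32, adjusted p = 0.0347) and Cd36 (0.91, adjusted p = 0.0124) with 178, and for Pparg (-0.78, adjusted p = 0.0347) and Cebpd (-0.70, adjusted p = 0.046) with 181. The Pparg call for 178 was lost when untreated replicate 1 (-0.89, adjusted p = 0.104), methanol replicate 2 or 3, or the second array of 300 ng/ml BMP4 was left out. The doses of the compounds and of BMP4 are on different scales, and the 3 comparisons share the BMP4 and control arrays.

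At 25 µM of compound 181, 4 of the 10 genes had an unadjusted p under 0.05, Pparg, Cebpa, Lpl and Cd36, and limma called 0 of them, against 0.018% of all genes called and 1416 of 22180 with an unadjusted p under 0.05. Pparg had 7.52, 7.72 and 8.13 with 6.25, 12.5 and 25 µM of 181, against 7.36, 7.59 and 7.59 with methanol. The array at 25 µM was the highest of these, 0.61 above the methanol mean (95% interval 0.20 to 1.03, adjusted p = 0.51). Cebpa had 5.83, 6.08 and 6.62 with 181, against 5.77, 5.83 and 6.02 with methanol, and 0.75 more than methanol at 25 µM (95% interval 0.01 to 1.49, adjusted p = 0.772). Both genes were ordered by dose, as were 19.2% of all genes in the upward direction, Plin1 (4.77, 4.91 and 5.05) among them. Per doubling of 181 the slope was 0.30 for Pparg and 0.40 for Cebpa, and neither was called.

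Lpl and Cd36 were also ordered by the dose of 181. Lpl had 7.96, 8.40 and 8.73 with 6.25, 12.5 and 25 µM, against 7.27, 8.12 and 8.09 with methanol, and 0.91 more than methanol at 25 µM (95% interval 0.11 to 1.70, adjusted p = 0.705). Measured against the methanol arrays of its own run, the Lpl difference at 25 µM was 0.63. Cd36 had 4.40, 4.16 and 3.80 with 181, against 4.64, 4.40 and 4.41 with methanol, and -0.68 at 25 µM (95% interval -1.16 to -0.21, adjusted p = 0.53). All 3 arrays of 181 were below the lowest methanol array for Cd36, the one at 6.25 µM barely so.

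Compound 942 gave the same order by dose for Lpl and Cd36, without a call. Lpl had 7.60, 7.79 and 8.57 with 6.25, 12.5 and 25 µM of 942, and the methanol array of the same run had 7.27. Cd36 had 4.58, 3.97 and 3.59 with 942, and the methanol array of the same run had 4.64. The highest dose was 1.30 above that methanol array for Lpl and -1.05 from it for Cd36, while the model, with its labelling term, gave 0.97 (95% interval -0.29 to 2.22) and -1.02 (95% interval -1.78 to -0.26, adjusted p = 1). An upward order by dose was seen for 18.2% of all genes under 942, Lpl and Fabp4 (3.11, 3.34 and 3.56) among them. A downward order was seen for 21.1% of all genes under 942 and for 19.4% under 181. The slope per doubling of dose was 0.48 under 942 and 0.38 under 181 for Lpl. For Cd36 it was -0.49 under 942 and -0.30 under 181. None of these slopes was called, and each rests on 1 array per dose.

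**Figure D3:**
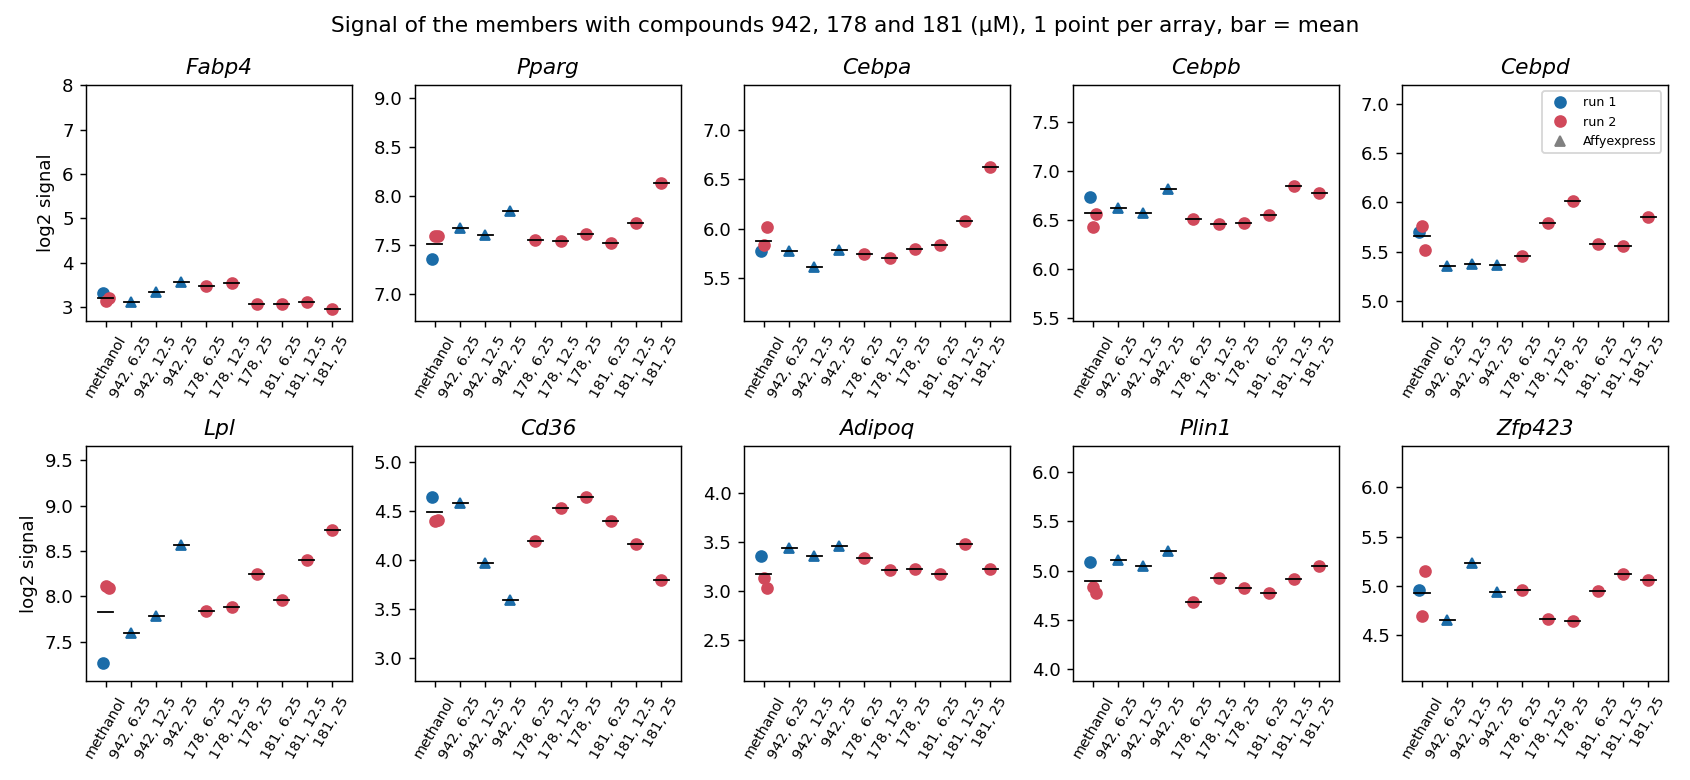
Log2 signal (vertical axis) of each of the 10 genes with methanol and with 6.25, 12.5 and 25 µM of compounds 942, 178 and 181 (horizontal axis). Each point is 1 array, colours mark the runs, triangles mark Affyexpress labelling, and bars are group means. Pparg, Cebpa and Lpl are highest and Cd36 is lowest at 25 µM within compound 181, whereas Fabp4 lies at 2.95 to 3.12 there.

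With compound 178, Lpl, Cebpd and Cd36 were ordered upward by dose, as were 17.5% of all genes. Lpl had 7.84, 7.88 and 8.25 at 6.25, 12.5 and 25 µM of 178, upward as with 942 and 181, and Cd36 had 4.20, 4.53 and 4.64, opposite to its order with those compounds. Cebpd had 5.45, 5.79 and 6.01 with 178, against 5.69, 5.76 and 5.52 with methanol. Zfp423 was ordered downward with 178, as were 16.4% of all genes. At 25 µM of 178 Cebpd was 0.35 above the methanol mean (95% interval -0.08 to 0.79), and that single array lay above all 5 controls, the highest being 5.76. Its slope per doubling of 178 was 0.28 and was not called. The compounds were compared with each other in 12 ways, 3 pairs as means and at each of the 3 matched doses, and limma called 0 of the 10 genes in each. Of these 120 differences 3 had an unadjusted p under 0.05, all at 25 µM. They were Cd36 in 178 minus 942 (1.18, 95% interval 0.35 to 2.01), Cd36 in 181 minus 178 (-0.84, 95% interval -1.43 to -0.25, adjusted p = 0.739) and Pparg in 181 minus 178 (0.51, 95% interval 0.00 to 1.03, adjusted p = 0.899). At 25 µM, 423 of all 22180 genes had an unadjusted p under 0.05 in 178 minus 942 and 1233 in 181 minus 178. The percentage of all genes called was 0.00451% for the mean of 181 minus 178 and 0% for the other 11 comparisons.

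Other genes of fat formation and lipid metabolism were read from 10 lists that hold 123 genes outside the 10, of which 113 were measured. BMP4 raised 14 and lowered 12 of the 113 as the mean over doses, against 4.2% and 4.6% of all genes, and the median difference of the 113 was 0.00. Under each compound limma called 0 of the 113, with 2, 0 and 5 at an unadjusted p under 0.05 for 942, 178 and 181. Of all 22180 genes, 333, 547 and 816 had such a p. Leaving out untreated replicate 1 left 13 of the 113 called for BMP4, in place of 26.

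**Figure D4:**
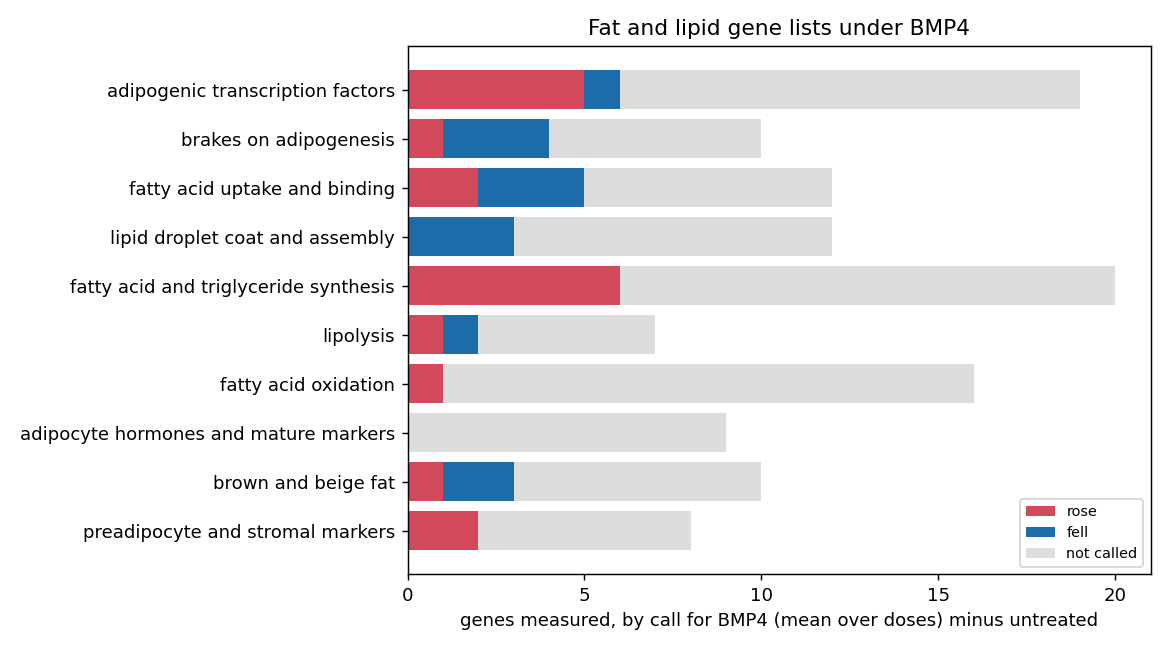
Number of measured genes (horizontal axis) in each of 10 lists (vertical axis) that rose, fell or were not called for BMP4 minus untreated, as the mean over doses. The synthesis list has 6 genes up and none down, the lipid droplet list 3 down and none up, and the list of hormones and mature markers no called gene.

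Among 19 adipogenic transcription factors 5 rose and 1 fell, with a median difference of 0.15. Beside Pparg, Cebpd and Zfp423, the genes that rose were Ebf1, an early B cell factor that acts in adipogenesis (1.13, adjusted p = 0.000364), and Nr3c1, the glucocorticoid receptor. Klf5, a Kruppel-like factor that acts ahead of Pparg in mouse preadipocytes, fell, with 9.71 and 9.90 in untreated cells and 5.86 and 6.24 at 300 ng/ml BMP4. Its mean difference was -2.51 (adjusted p = 0.000269), 5.71-fold lower, opposite in direction to Pparg. Among 10 brakes on adipogenesis 1 rose and 3 fell as the mean over doses, with a median of -0.08. Ccn5, a protein that binds Zfp423 and keeps it out of the nucleus, rose by 0.68 (adjusted p = 0.00137), and Klf2, which represses Pparg, had -0.55 (adjusted p = 0.00629). The deacetylase gene Sirt1 had -0.51 (adjusted p = 0.00405) and Nr2f2 was the other that fell. By dose the brakes were more even. At 100 ng/ml 2 rose (Ccn5 and Ddit3) and 2 fell (Sirt1 and Klf2), where 9.15% of all genes were called. At 300 ng/ml 2 rose (Wnt10b and Ccn5) and 2 fell (Klf2 and Sirt1), where 7.98% of all genes were called. The slope on dose was called for 1 brake, Wnt10b, upward, against 5.4% of all genes.

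The genes around Fabp4, Lpl and Cd36 did not follow one direction. Of 12 measured genes of fatty acid uptake and binding 2 rose (Fabp4 and Lpl) and 3 fell (Cd36, Angptl4 and Slc27a1), with a median of -0.06. Angptl4, a secreted inhibitor of the Lpl enzyme, had -1.77 (adjusted p = 0.000106), 3.42-fold lower while Lpl rose. Fabp3 and Fabp5, the heart and epidermal relatives of Fabp4, had -0.11 and 0.17 and were not called (adjusted p = 0.706 and 0.693). Of 12 lipid droplet genes 0 rose and 3 fell, with a median of -0.05. They were Fitm1 (-0.70, adjusted p = 0.0471), Fitm2 (-0.53, adjusted p = 0.0496) and the droplet coat gene Plin2 (-0.49, adjusted p = 0.0109). Fitm1 and Fitm2, which help droplets form, lost the call in 11 and 12 of their 22 alternatives.

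Of 20 measured genes of fatty acid and triglyceride synthesis 6 rose and 0 fell, with a median of 0.10. Me1, the malic enzyme that supplies NADPH, had 1.16 (adjusted p = 0.00647), the elongase gene Elovl5 0.56 (adjusted p = 0.000895) and the desaturase gene Fads2 0.53 (adjusted p = 0.00175), with Fads1, Agpat2 and Scd1 the other three. Lipolysis held 1 gene that rose, the lysosomal lipase gene Lipa (0.46, adjusted p = 0.00743), and 1 that fell, Pnpla2 of the adipose triglyceride lipase (-0.60, adjusted p = 0.0117), among 7 measured. Fatty acid oxidation held 1 riser, Pdk4 (0.55, adjusted p = 0.0319), among 16, and its call was held in 13 of 22 alternatives. Leaving out untreated replicate 1 ended the calls of Me1, Klf2, Plin2, Pnpla2, Lipa and Pdk4, leaving out untreated replicate 2 those of Sirt1, Pnpla2 and Pdk4, and leaving out the second array of 300 ng/ml those of Me1, Pnpla2, Lipa and Pdk4.

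Hormones and mature markers, 9 measured, had 0 called genes in limma and 0 at an unadjusted p under 0.05, and the largest difference was that of Sncg (-0.32, adjusted p = 0.427). Among 10 genes of brown and beige fat, 1 rose, Tbx1 (0.66, adjusted p = 0.00304), and 2 fell. Those that fell were Cox8b, a subunit of cytochrome c oxidase found in brown fat and in muscle (-2.31, adjusted p = 7.4e-05), and Ppargc1a, a coactivator of mitochondrial genes (-0.52, adjusted p = 0.0321). Of 8 measured preadipocyte and stromal markers 2 rose and 0 fell. Cd24a, a surface antigen of early fat precursors, had 2.60 (adjusted p = 0.000844), and Pdgfra, a receptor of mesenchymal precursors, had 1.31 (adjusted p = 0.00655). Leaving out untreated replicate 2 ended the calls of Ppargc1a (adjusted p = 0.106) and Pdgfra (0.0908), and that of Ppargc1a was held in 14 of 21 alternatives. Genes named only to complete a count were picked after their values were seen. They are Nr3c1, Nr2f2, Ddit3, Wnt10b, Slc27a1, Fads1, Agpat2, Scd1, Col2a1 and Sox9. The same holds for the relatives Fabp3 and Fabp5.

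Markers of muscle and of osteoblasts changed under BMP4, mostly at 100 and 300 ng/ml. All 7 muscle markers fell as the mean over the BMP4 doses, where their summed linear signal was 1168 to 14750, against 12960 to 14280 in untreated cells. With compound 181 the muscle sums were 9335 to 12960, against 12180 to 15260 with methanol, and limma called 0 of the 7, with 2 at an unadjusted p under 0.05. Of all 22180 genes, 816 had such a p with 181. Of 5 measured osteoblast markers 4 rose as the mean over doses, with sums of 687.7 to 5093 under BMP4 against 624.4 to 720.2 in untreated cells. At 10 ng/ml, where Lpl was called, limma called 1 muscle marker, Tnnt3, which fell, with 3 at an unadjusted p under 0.05 and a median difference of -0.06, and it called 0 of the 5 osteoblast markers, with 0 at an unadjusted p under 0.05. Of all 22180 genes, 2227 had such a p at that dose. At 100 and at 300 ng/ml all 7 muscle markers fell and 4 osteoblast markers rose. The part of either in the results above was not tested, and in RNA from whole cultures fewer cells of a type and less RNA per cell cannot be told apart. Macrophage and endothelial cells also express Fabp4, and of 7 markers of each limma called 0 for the BMP4 mean, with 2 and 0 at an unadjusted p under 0.05. Of all 22180 genes, 4410 had such a p in that comparison. The macrophage sums were 191.8 to 225.1 under BMP4, 176.5 to 176.9 in untreated cells and 179.8 to 200.4 with methanol. The endothelial sums were 124.5 to 155.5, 138.6 to 144.2 and 123.7 to 137.1 in the same order. Of 5 chondrocyte markers 1 rose (Col2a1) and 1 fell (Sox9) for the BMP4 mean, against 4.2% and 4.6% of all genes. The chondrocyte sums were 780.6 to 1234 under BMP4 and 1064 to 1149 in untreated cells. The 7 measured adipocyte markers, which include Adipoq and Plin1, had 0 called, 0 at an unadjusted p under 0.05, and sums of 189.1 to 223.1 under BMP4 against 198.7 to 230.1 in untreated cells.

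The genes with the pattern most like that of Fabp4 were found by the root-mean-square difference of the changes against untreated cells over 13 treated groups. These were Alpl (0.35), the alkaline phosphatase of osteoblasts, then Tnn (0.36), a tenascin, Krt14 (0.38), a keratin, Omd (0.45), a proteoglycan of bone, and Fabp7 (0.45), a fatty acid binding protein known from brain. Fabp7 had 3.93 and 4.37 in untreated cells, 5.03 and 5.41 at 10 ng/ml, 6.21 and 8.28 at 100 ng/ml and 8.49 and 8.60 at 300 ng/ml. Nearest to Pparg were Snai2 (0.13), Tmem185a (0.14) and Emb (0.14). These are descriptions over groups that share their untreated arrays.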

How the data were processed

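Expression was measured on 20 Affymetrix mouse gene arrays. Per the submitters' processing notes, the deposited values are log2 signals made by the authors in Partek 6.5 with RMA. Per the labels' protocols, 2 labelling methods were used, and a correction of the deposited values for them is neither stated nor denied in the sources used here. Array medians were 4.93 to 5.05. Of 41345 probe sets 23521 had 1 symbol in the platform annotation, 1814 had several and 16010 were unnamed, and only those with 1 symbol were used, which gave 22180 genes. For the 1082 genes with more than 1 probe set, the one with the highest mean was used.

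All arrays entered 1 limma fit (version 3.58.1, R 4.3.3) with a mean for each treatment at each dose, a labelling term and a variance trend, which left 5 residual degrees of freedom. The code was tested on simulated data, and a gene was called where its adjusted p (Benjamini-Hochberg over all genes) was under 0.05. Single arrays of a compound dose were assumed to vary like the other groups. Beside the 10 genes, the text names up to 3 genes per list with the largest called BMP4 change, or the 1 largest where none was called, and the 5 and 3 genes most like Fabp4 and Pparg. The genes and lists were chosen with earlier results of these data known. The 12.5 µM and 100 ng/ml doses were taken from sample titles. The number of arrays limits the precision.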

Additional observations from a re-analysis of the deposited data

Results flagged for a closer look

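The change of Fabp4 under compound 178 differed from its change under BMP4 by -2.97 (limma adjusted p = 0.00218), and that under compound 181 differed by -3.29 (adjusted p = 0.00166). All 6 BMP4 arrays were above every methanol and untreated array, while the arrays of 178 and 181 lay between 2.95 and 3.55. The change of Pparg under compound 178 differed from its change under BMP4 by -1.01 (adjusted p = 0.0147). These are differences between the treatments in the size of a change, each tested as a contrast of changes. The compounds were set against methanol and BMP4 against untreated cells.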

How the results depend on the processing

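No gene of the 10 reversed a called direction in 3549 gene values recomputed over 31 settings, of which 3461 kept their side of the threshold, 36 lost a call and 52 gained one. Leaving out 1 array at a time gave 2 to 6 called genes of the 10 for the BMP4 mean, 0 to 2 at 10 ng/ml, 4 to 6 at 100 ng/ml, 4 to 5 at 300 ng/ml, 2 to 4 for the slope and 2 to 5 for the compound change minus the BMP4 change over the 3 compounds. The same gave 13 to 30 called list genes, in place of 26, with 17 when untreated replicate 2 and 16 when the second array of 300 ng/ml was left out. The low value of 2 for the BMP4 mean, Fabp4 and Pparg, came without untreated replicate 1, where 915 of all genes were called in place of 1953. At 10 ng/ml, where 1 gene was called, the count was 2 without the labelling term, 2 with labelling and run terms, 2 with untreated and methanol together as control, and 0 without the variance trend, 0 with median centring, 0 with probe sets averaged and 0 with methanol as control. Leaving out dim genes removed Fabp4, Cd36 and Adipoq, so that of 7 genes 2 were called at 300 ng/ml in place of 4 and 1 for the slope in place of 3. For the compound change minus the BMP4 change, 3 calls became 8 without the labelling term, 8 with labelling and run terms, 10 with methanol as control of BMP4 and 10 with untreated and methanol together, and the cause was not tested. With 1 common mean for the doses, Cebpd (0.64, adjusted p = 0.123) and Cd36 (-0.82, adjusted p = 0.0681) were not called. The counts of 0 for methanol, each compound and the compound pairs held in every setting run. The labels give no replicate numbers to pair arrays by, so the run of sample titles was the block. With labelling and run terms the genes called for the BMP4 mean, at 100 and 300 ng/ml and for the slope stayed at 6, 6, 4 and 3, and 2988 of all genes were called for the mean in place of 1953. Limits are the 2 arrays per BMP4 dose, the single array per compound dose, the labelling method that holds every array of 942, and the dim signals of Fabp4, Cd36 and Adipoq.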
